A study of Mus musculus with 12 samples.

Results

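RNA of embryonic day 16 mouse neocortex carrying a knockout of Nfia was set directly against neocortex carrying a knockout of Nfib, using the 8 knockout libraries of a study with 12 libraries in all. The 4 libraries labelled homozygous Nfia knockout came from the strain Nfia{tm1Rmg} and the 4 labelled homozygous Nfib knockout from the strain Nfib{tm1Rmg}, both given as C57BL/6, and 2 wild-type libraries of each strain stood beside them. Every library was made from total RNA of microdissected neocortex at embryonic day 16. No promoter or Cre that would limit the knockouts to some cells is named, and neocortex as dissected holds progenitors, neurons, glia and vessels together. The labels do not say whether the libraries of a group came from separate embryos or litters. The comparison asks which transcripts separate the knockouts, and how far the wild types of the same lines are already apart at those transcripts.

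NFIA and NFIB are nuclear factor I proteins, transcription factors that bind DNA as dimers at a palindrome of TTGGC and GCCAA separated by 5 bases. In the embryonic cortex they are made by radial glia, the stem cells of the ventricular zone, and by young neurons. They are known there for acting on the exit from the stem cell state and on the start of glial differentiation. Loss of either factor in mice is known to disturb midline glia and the corpus callosum.

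Each group has 1 value per gene, an average in FPKM, which is a fragment count scaled by the length of the transcript and the size of the library. These averages carry no spread between libraries and no read depth, so the ratio of one knockout group to the other has no test. Of 23352 gene rows, 12404 reached 1 FPKM in either knockout group and were kept. The knockout ratio was log2((labelled Nfia knockout + 0.1)/(Nfib knockout + 0.1)), and the wild-type ratio was formed the same way from the Nfia-line and the Nfib-line wild types. The added 0.1 FPKM understates ratios of low genes. The 2 ratios share no library. In bulk tissue, fewer cells of a type and less RNA per cell cannot be told apart, which holds for each gene group below.

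The tissue label was checked on 6 neocortical genes, among them Emx1, Neurod2, Neurod6 and Tbr1. Their summed level was 1116 FPKM in the labelled Nfia knockouts and 1320 FPKM in the Nfib knockouts, against 1319 FPKM in the Nfia-line and 1045 FPKM in the Nfib-line wild types. The wild types of the 2 lines differed in transcripts of the sex chromosomes and the knockouts did so much less. The Y-linked Ddx3y had 7.29 and 5.89 FPKM in the labelled Nfia and the Nfib knockouts, against 0.033 FPKM in Nfia-line and 11.5 FPKM in Nfib-line wild types. Xist, made from the inactive X chromosome, had 77.0 and 86.0 FPKM in the labelled Nfia and the Nfib knockouts, against 161 FPKM in Nfia-line and 0.207 FPKM in Nfib-line wild types. In the wild types, line and the sex of the embryos cannot be told apart.

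Nfib itself gave the clearest difference between the knockouts among the NFI genes. It had 142 FPKM in the labelled Nfia knockouts and 9.12 FPKM in the Nfib knockouts, against 190 FPKM in Nfia-line and 134 FPKM in Nfib-line wild types, a knockout ratio of 3.95 on the log2 scale. Nfia ran the other way. Its level was 28.2 FPKM in the labelled Nfia knockouts and 54.4 FPKM in the Nfib knockouts, against 33.7 FPKM in Nfia-line and 24.3 FPKM in Nfib-line wild types. The log2 ratio of Nfia was -0.94 between the knockouts and 0.47 between the wild types. The Nfib knockouts held the highest Nfia level of the 4 groups and the labelled Nfia knockouts lay within the wild-type range. Since it covers the gene as a whole, this level does not check the Nfia knockout label. Nfix had 108 FPKM in the labelled Nfia knockouts and 144 FPKM in the Nfib knockouts, both under the wild types with 165 and 163 FPKM in the Nfia and the Nfib line. Nfic, the fourth family member, was similar throughout, with 5.06 and 6.37 FPKM in the labelled Nfia and the Nfib knockouts and 6.16 and 6.71 FPKM in Nfia-line and Nfib-line wild types.

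Over all kept rows the knockout groups were close. The median knockout ratio was 0.0059 on the log2 scale, and 94.1% of rows lay within 0.5, while 94.9% of rows did so between the wild types. At least 2-fold higher in the labelled Nfia knockouts were 118 rows (0.951% of 12404), and 27 rows (0.218%) were at least 2-fold lower. The wild types leaned the opposite way on the same rows, with 13 rows (0.105%) at least 2-fold higher and 82 rows (0.661%) at least 2-fold lower in the Nfia line. Across all kept genes the knockout ratio and the wild-type ratio had a Pearson correlation of -0.15 and a Spearman correlation of -0.28 (n = 12404 genes, which are not independent). Without 5 sex-linked genes these were -0.16 and -0.28, and they were -0.29 and -0.27 over the 8962 genes at 5 FPKM or more in all groups.

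Among the 118 rows higher in the labelled Nfia knockouts, the wild types were within 0.5 log2 of each other for 48 rows (40.7%). For 29 rows (24.6%) they were at least 2-fold apart the opposite way, and for 3 rows at least 2-fold apart the same way. In between, the wild types differed by 0.5 to 1 log2 the opposite way for 36 rows and the same way for 2. Placed against both wild-type groups at once, the Nfib knockouts alone lay at least 1.5-fold outside for 38 of the 118 rows, the labelled Nfia knockouts alone for 27, both for 5 and neither for 48. So at 48 rows the knockouts were 2-fold apart without either one leaving the wild-type range by 1.5-fold. Of the 27 lower rows, 12 had wild types within 0.5 log2, 8 had them 2-fold apart the same way and 3 the opposite way. Small RNA rows or rows listed at 0 in a group made up 10 of the 118 higher and 14 of the 27 lower rows. Leaving out these rows and the rows that name several genes left 108 higher and 12 lower rows. Of these 12 lower rows, 4 had wild types within 0.5 log2, 3 had them 2-fold apart the same way and 2 the opposite way. Of the 108 higher rows it was 41, 1 and 28. A listed 0 may mean that the estimate failed, as for the abundant translation factor gene Eef1a1, which is listed at 0 in the labelled Nfia knockouts and at 4391 FPKM in the Nfib knockouts.

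Close to the 2-fold limit, Cbln4 (1.003), Lefty2 (1.003) and Lrrc3b (1.005) were just inside on the higher side and Sowaha (0.998), Gm21949 (0.998) and Ptprr (0.991) just outside, all as log2 knockout ratios. On the lower side, Sostdc1 (-1.07), Dct (-1.02) and Snord17 (-1.02) were just inside and C030018K13Rik (-0.999), Wfdc2 (-0.99) and Dmrta1 (-0.97) just outside.

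**Figure D1:**
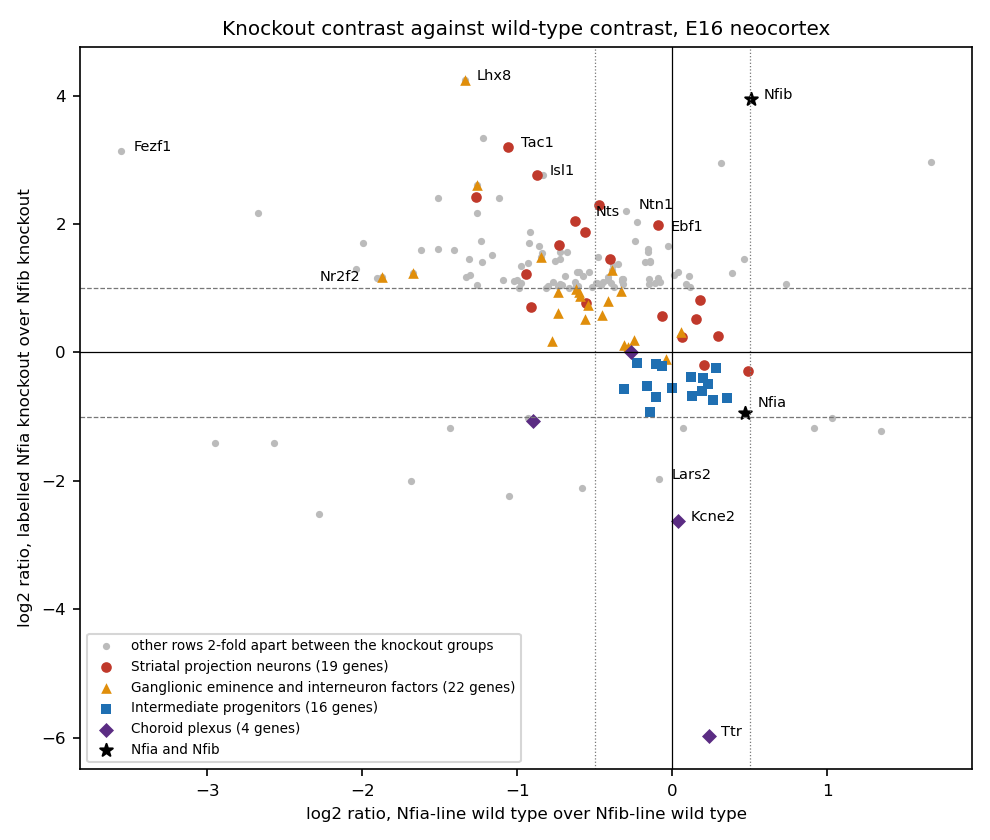
Log2 ratio of the labelled Nfia over the Nfib knockouts (vertical) against log2 ratio of the Nfia-line over the Nfib-line wild types (horizontal), group averages with 0.1 FPKM added. Points are rows at least 2-fold apart between the knockouts, members of 4 gene lists, and Nfia and Nfib, without rows listed at 0. Dashed lines mark 2-fold and dotted lines 0.5 log2. Most striatal and ganglionic eminence genes sit above 0 on the vertical and left of 0 on the horizontal axis, all 16 intermediate progenitor genes lie below 0, and Ttr stands apart at -5.98.

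Genes of striatal projection neurons, the output neurons of the ventral forebrain next to the cortex, mostly had higher averages in the labelled Nfia than in the Nfib knockouts. Of 20 genes, 19 were kept, 10 were at least 2-fold higher in the labelled Nfia knockouts (0.951% of all rows) and 0 were 2-fold lower (0.218%). The list median was 1.22 between the knockouts and -0.47 between the wild types, beside medians of 0.0059 and -0.018 over all rows. Of the 10 members, 5 reached 1 FPKM in the labelled Nfia knockouts alone and so passed through the group where they are high. Over the 13 members at 1 FPKM in both knockouts 5 were at least 2-fold higher and the median was 0.77, and over all 20 members it was 1.02. Over all kept rows, 59 of the 118 higher rows passed through the labelled Nfia knockouts alone. For 15 of the 19 the Nfib knockouts were the lowest of the 4 groups (25.2% of all rows), and for 13 the labelled Nfia knockouts were the highest (24.5% of all rows). These counts include members among the 6 that passed through the labelled Nfia knockouts alone, which had to be higher there than in the Nfib knockouts. Tac1, which encodes the precursor of substance P, had 14.2 FPKM in the labelled Nfia knockouts and 1.46 FPKM in the Nfib knockouts, against 5.20 FPKM in Nfia-line and 10.9 FPKM in Nfib-line wild types (log2 knockout ratio 3.19). Isl1, a LIM homeodomain factor of striatonigral neurons, had 7.31 FPKM in the labelled Nfia knockouts and 0.993 FPKM in the Nfib knockouts, against 2.60 FPKM in Nfia-line and 4.84 FPKM in Nfib-line wild types (2.76). In both genes the wild types stood between the knockouts, with the Nfib-line wild types nearer to the labelled Nfia knockouts.

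Six3 and Rarb, both known regulators of striatal neuron development, were also lowest in the Nfib knockouts. The homeobox gene Six3 reached 2.999 FPKM in the labelled Nfia knockouts and 0.477 FPKM in the Nfib knockouts, against 1.37 FPKM in Nfia-line and 3.46 FPKM in Nfib-line wild types (2.42). Rarb, a retinoic acid receptor gene, reached 5.59 FPKM in the labelled Nfia knockouts and 1.06 FPKM in the Nfib knockouts, against 3.33 FPKM in Nfia-line and 4.67 FPKM in Nfib-line wild types (2.30). Rxrg, a retinoid X receptor gene outside the list, had 9.71 and 1.35 FPKM in the labelled Nfia and the Nfib knockouts, against 5.66 and 10.2 FPKM in Nfia-line and Nfib-line wild types (2.76). Ebf1, a factor of striatal differentiation, was the member with the closest wild types among those at least 2-fold apart. It had 9.73 FPKM in the labelled Nfia knockouts and 2.39 FPKM in the Nfib knockouts, against 4.64 FPKM in Nfia-line and 4.96 FPKM in Nfib-line wild types, so the knockout ratio was 1.98 and the wild-type ratio -0.09. Ebf1 in the labelled Nfia knockouts lay about as far above the wild types as in the Nfib knockouts it lay below them, with a log2 fold in the authors' deposited table of 1.06 (q = 0.00286) against their own wild types for the Nfia and of -1.02 (q = 0.00385) for the Nfib knockouts. Further members at least 2-fold higher included the zinc finger gene Zfp503 (2.05), the dopamine receptor gene Drd2 (1.68), Ikzf1 (1.46) and the enkephalin precursor gene Penk (1.22), all as log2 knockout ratios.

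Not every striatal gene took this order. Ppp1r1b, which encodes DARPP-32, had 40.1 FPKM in the labelled Nfia knockouts and 48.9 FPKM in the Nfib knockouts, against 48.2 FPKM in Nfia-line and 34.3 FPKM in Nfib-line wild types (-0.29). Meis2 had 85.1 and 98.0 FPKM in the labelled Nfia and the Nfib knockouts (-0.20), and the phosphodiesterase gene Pde10a had 19.8 and 16.8 FPKM (0.24). All 3 were more abundant in the labelled Nfia knockouts than any of the 10 members at least 2-fold higher there.

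**Figure D2:**
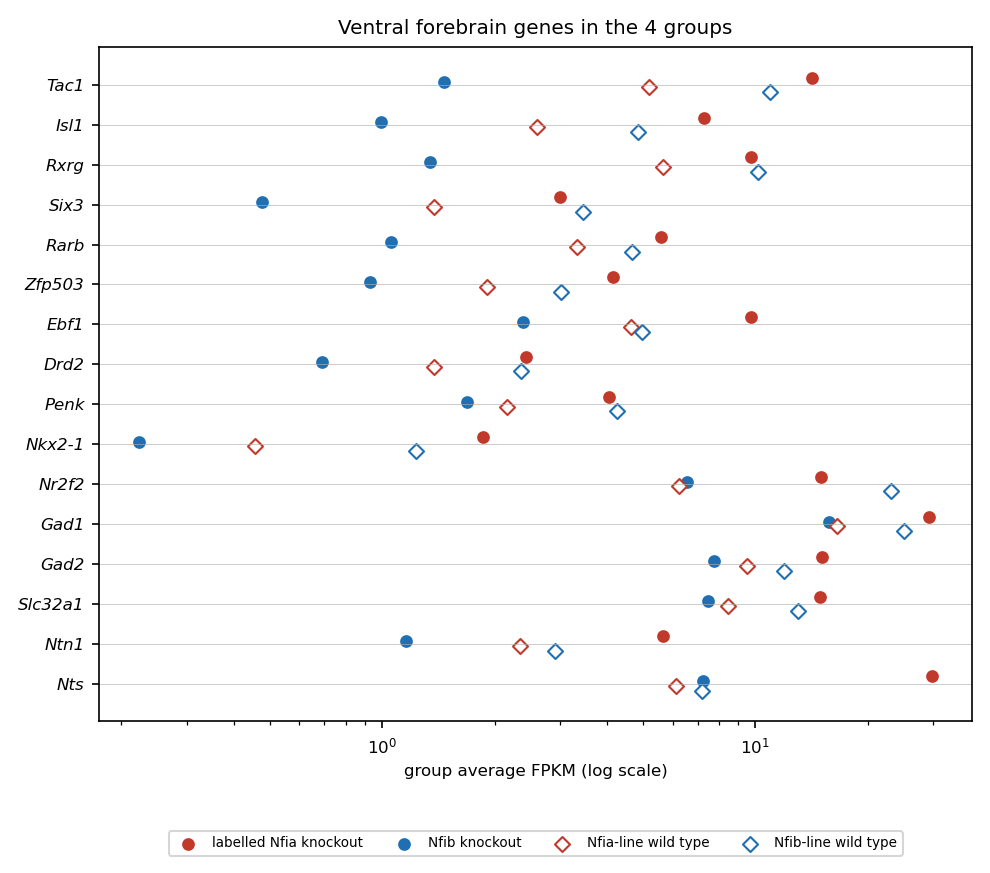
Group average FPKM (log scale, horizontal) of 16 ventral forebrain genes in the labelled Nfia knockouts (red circles), Nfib knockouts (blue circles), Nfia-line wild types (open red diamonds) and Nfib-line wild types (open blue diamonds). For Tac1, Isl1 and Ntn1 the Nfib knockouts are lowest and the labelled Nfia knockouts highest. For Nr2f2 the Nfib knockouts (6.57) and the Nfia-line wild types (6.22) lie together, as do 3 groups for Nts. The genes are a selection, and Ppp1r1b and Meis2, which were higher in the Nfib knockouts, are not drawn.

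Genes of the ganglionic eminences and of the interneurons born there gave 22 kept of 24 members. In the labelled Nfia knockouts 6 were at least 2-fold higher (0.951% of all rows) and 0 lower (0.218%). Lhx8, Nkx2-1, Gsx2 and Prox1, 4 of the 6, reached 1 FPKM in the labelled Nfia knockouts alone, and over the 18 members at 1 FPKM in both knockouts 2 were at least 2-fold higher and the median was 0.68. At 1.5-fold, 14 were higher (3.15% of all rows) and 0 lower (1.04%). The list median was 0.84 between the knockouts and -0.58 between the wild types, and 21 of the 22 knockout ratios were above 0 (51.7% of all rows). The 4 members that passed through the labelled Nfia knockouts alone had to be above 0, and they are also among the 14. Lhx8, a LIM homeobox gene of the medial ganglionic eminence, had 2.28 FPKM in the labelled Nfia knockouts and 0.0256 FPKM in the Nfib knockouts, against 0.314 FPKM in Nfia-line and 0.948 FPKM in Nfib-line wild types (4.25). Its partner Nkx2-1, which specifies that eminence, had 1.86 FPKM in the labelled Nfia knockouts and 0.223 FPKM in the Nfib knockouts, against 0.457 FPKM in Nfia-line and 1.24 FPKM in Nfib-line wild types (2.60). Both genes were low everywhere and highest in the labelled Nfia knockouts.

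The GABA genes were more abundant and differed less. Gad1, which encodes a GABA-synthesizing enzyme, had 29.1 FPKM in the labelled Nfia knockouts and 15.8 FPKM in the Nfib knockouts, against 16.5 FPKM in Nfia-line and 24.97 FPKM in Nfib-line wild types (0.88). Gad2 had 15.1 and 7.76 FPKM in the labelled Nfia and the Nfib knockouts, against 9.49 and 11.97 FPKM in Nfia-line and Nfib-line wild types (0.95). Slc32a1, the vesicular GABA transporter gene, had 14.9 and 7.49 FPKM in the labelled Nfia and the Nfib knockouts, against 8.45 and 13.0 FPKM in Nfia-line and Nfib-line wild types (0.98). The interneuron peptide gene Sst had 235 and 140 FPKM in the labelled Nfia and the Nfib knockouts, against 101 and 148 FPKM in Nfia-line and Nfib-line wild types (0.74). Lhx6, a factor of migrating cortical interneurons, differed less than these, with 31.0 FPKM in the labelled Nfia and 27.2 FPKM in the Nfib knockouts (0.19). The summed level of the list was 549 FPKM in the labelled Nfia and 342 FPKM in the Nfib knockouts, against 339 FPKM in Nfia-line and 502 FPKM in Nfib-line wild types. How much ventral tissue each dissection took was not tested.

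Promoters are printed for 4 ventral regulators that were higher in the labelled Nfia knockouts (Isl1, Nkx2-1, Six3 and Rxrg) and for 2 progenitor factors that were lower in them and are described further on (Eomes and Nhlh1), since each set differed in 1 direction. They were chosen after their values were seen, among genes whose promoter holds TTGGCA or TTGGCT on either strand. Each of these words is an arm of the NFI palindrome with 1 further base. The sequences run from 250 bases before to 50 bases after the RefSeq start, 5' to 3' on the gene's strand, in build GRCm38.p6, which is not the build mm9 of the expression values. Isl1 lies at chr13:116309639-116309938 (minus strand) and Nkx2-1 at chr12:56536859-56537158 (minus). Six3 lies at chr17:85620584-85620883 (plus) and Rxrg at chr1:167618015-167618314 (plus). Eomes lies at chr9:118477939-118478238 (plus) and Nhlh1 at chr1:172057547-172057846 (minus). Capitals mark the words searched, TTGGCA and TTGGCT, on either strand. Arms with another further base, TTGGCC or TTGGCG, are not marked.
Isl1: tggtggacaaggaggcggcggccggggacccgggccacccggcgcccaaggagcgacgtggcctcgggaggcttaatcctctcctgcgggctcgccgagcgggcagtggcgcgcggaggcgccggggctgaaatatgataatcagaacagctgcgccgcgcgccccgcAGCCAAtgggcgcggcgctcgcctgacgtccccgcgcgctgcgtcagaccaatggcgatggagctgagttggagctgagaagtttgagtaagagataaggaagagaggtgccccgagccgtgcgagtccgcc
Nkx2-1: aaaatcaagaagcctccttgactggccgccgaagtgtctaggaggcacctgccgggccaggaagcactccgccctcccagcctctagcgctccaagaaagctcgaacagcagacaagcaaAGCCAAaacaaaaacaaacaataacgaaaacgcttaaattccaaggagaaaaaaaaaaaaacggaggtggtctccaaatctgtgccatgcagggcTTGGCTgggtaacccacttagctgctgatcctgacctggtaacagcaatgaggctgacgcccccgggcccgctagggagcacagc
Six3: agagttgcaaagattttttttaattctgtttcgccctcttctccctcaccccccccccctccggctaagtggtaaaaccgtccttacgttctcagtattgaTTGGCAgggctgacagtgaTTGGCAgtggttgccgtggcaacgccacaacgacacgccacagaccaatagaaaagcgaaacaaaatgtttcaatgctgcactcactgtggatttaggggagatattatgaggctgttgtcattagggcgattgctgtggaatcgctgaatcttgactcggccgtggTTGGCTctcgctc
Rxrg: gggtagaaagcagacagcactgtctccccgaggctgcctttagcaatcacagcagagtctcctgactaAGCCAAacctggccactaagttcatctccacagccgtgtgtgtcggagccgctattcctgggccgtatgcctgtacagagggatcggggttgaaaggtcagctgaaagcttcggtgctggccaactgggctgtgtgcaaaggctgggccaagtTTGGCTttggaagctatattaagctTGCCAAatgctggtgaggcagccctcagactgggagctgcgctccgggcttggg
Eomes: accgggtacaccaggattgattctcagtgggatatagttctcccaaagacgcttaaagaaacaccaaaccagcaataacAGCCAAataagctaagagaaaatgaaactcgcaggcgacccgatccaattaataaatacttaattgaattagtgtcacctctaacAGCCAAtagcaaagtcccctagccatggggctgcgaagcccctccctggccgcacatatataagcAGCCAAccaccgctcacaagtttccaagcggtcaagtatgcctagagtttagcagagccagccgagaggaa
Nhlh1: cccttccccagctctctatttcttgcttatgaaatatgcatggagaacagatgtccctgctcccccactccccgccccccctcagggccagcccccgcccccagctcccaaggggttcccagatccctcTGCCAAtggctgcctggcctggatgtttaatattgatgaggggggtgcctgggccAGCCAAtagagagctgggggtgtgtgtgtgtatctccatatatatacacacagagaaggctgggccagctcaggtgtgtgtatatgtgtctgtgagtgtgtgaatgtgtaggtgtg
Matches to these words numbered 1 in Isl1, 2 in Nkx2-1, 3 in Six3, 3 in Rxrg, 3 in Eomes and 2 in Nhlh1. The promoters of Tac1 and Lhx8 hold neither word, though that of Tac1 holds the shorter arm GCCAA. Such short words are common. TTGGCA stood in 12.5% of the 104 promoters found for 81 of the 117 named genes at least 2-fold higher, against 10.8% of the promoters of all kept rows and 14.1% of the 32851 promoters of the reference table. TTGGCT stood in 26.9% of the same 104, against 23.0% of the promoters of all kept rows and 21.8% of the reference table. The full palindrome, TTGGC and GCCAA with any 5 bases between them, stood in 0 of the 104 and in 0.0365% of the reference table. An arm is a match of letters in this window and says nothing of binding.

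Several genes with large knockout ratios had wild types within 0.5 log2 of each other, as Rarb and Ebf1 did above. Ntn1, which encodes the guidance cue netrin-1, had 5.67 FPKM in the labelled Nfia knockouts and 1.16 FPKM in the Nfib knockouts, against 2.34 FPKM in Nfia-line and 2.91 FPKM in Nfib-line wild types. Its knockout ratio was 2.20 and its wild-type ratio -0.30. The authors' deposited table gives Ntn1 a log2 fold of 1.26 (q = 0.00286) for the Nfia and -1.29 (q = 0.00207) for the Nfib knockouts against their own wild types. Ntn1 and the Eph receptor gene Epha8 (1.14) were the 2 of 40 kept axon guidance genes at least 2-fold higher (0.951% of all rows), and the median of that list was 0.01.

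Nts, the neurotensin precursor gene, was high in a single group. It had 29.8 FPKM in the labelled Nfia knockouts and 7.23 FPKM in the Nfib knockouts, against 6.12 FPKM in Nfia-line and 7.20 FPKM in Nfib-line wild types (2.03). The authors' deposited table gives it a log2 fold of 2.27 (q = 0.00286) for the Nfia knockouts and 0.04 (q = 0.998) for the Nfib knockouts. Ebf2, a factor of Cajal-Retzius cells, the earliest neurons of the cortical surface, was likewise highest in the labelled Nfia knockouts. It had 3.34 FPKM there and 1.06 FPKM in the Nfib knockouts, against 0.718 FPKM in Nfia-line and 0.812 FPKM in Nfib-line wild types (1.57). Reln, the reelin gene that marks the same cells, was alike in all groups, with 53.7 and 53.0 FPKM in the labelled Nfia and the Nfib knockouts and 54.0 and 49.5 FPKM in Nfia-line and Nfib-line wild types. Zic4, a zinc finger factor of the midline, had 1.495 and 0.408 FPKM in the labelled Nfia and the Nfib knockouts, against 0.637 and 0.651 FPKM in Nfia-line and Nfib-line wild types (1.65). Tcerg1l was low in both knockouts and lowest in one. It had 4.12 FPKM in the labelled Nfia and 1.17 FPKM in the Nfib knockouts, against 7.45 FPKM in Nfia-line and 8.83 FPKM in Nfib-line wild types (1.73). Gm3893 had the largest ratio in this class among rows of 1 gene with no listed 0 (2.95). Gm20878 (2.97) lies outside the class, with a wild-type ratio of 1.67. Both are predicted genes, and whether near copies make their values uncertain was not tested.

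Forebrain neuropeptide genes as a list had a median knockout ratio of 0.84 over 10 kept of 16 members, with 4 at least 2-fold higher, Tac1, Nts, Penk and the nociceptin precursor gene Pnoc (0.951% of all rows). Pnoc passed through the labelled Nfia knockouts alone. The wild-type median was -0.57. Nefl, the light neurofilament gene, stood out among 31 kept genes of maturing neurons and synapses. It had 19.6 FPKM in the labelled Nfia knockouts and 6.13 FPKM in the Nfib knockouts, against 13.4 FPKM in Nfia-line and 24.3 FPKM in Nfib-line wild types (1.66). In the rest of that list the ratios were smaller, 27 of 31 were above 0 (51.7% of all rows) and the median was 0.17. Slc12a5, the chloride exporter gene of mature neurons, had 13.7 and 7.38 FPKM in the labelled Nfia and the Nfib knockouts, against 6.87 and 10.5 FPKM in Nfia-line and Nfib-line wild types (0.88).

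Several genes crossed over between the contrasts, being at least 2-fold higher in the labelled Nfia than in the Nfib knockouts and at least 2-fold lower in the Nfia-line than in the Nfib-line wild types. Fezf1, a zinc finger factor of the diencephalon and olfactory system, had 3.11 FPKM in the labelled Nfia knockouts and 0.266 FPKM in the Nfib knockouts, against 0.101 FPKM in Nfia-line and 2.26 FPKM in Nfib-line wild types. Its ratios were 3.13 and -3.56. Cyp26b1, which degrades retinoic acid, had 3.63 and 1.05 FPKM in the labelled Nfia and the Nfib knockouts, against 1.05 and 4.51 FPKM in Nfia-line and Nfib-line wild types, with ratios of 1.70 and -1.998. Crabp1, a cellular retinoic acid binding protein gene, had 13.6 and 2.49 FPKM in the labelled Nfia and the Nfib knockouts, against 5.09 and 14.7 FPKM in Nfia-line and Nfib-line wild types (2.40 and -1.51). In all 3 genes the labelled Nfia knockouts and the Nfib-line wild types were the higher groups, and the Nfib knockouts and the Nfia-line wild types the lower ones.

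Nr2f2, a nuclear receptor gene of caudal ganglionic eminence and caudal cortex, showed the same crossing at higher levels. It had 14.98 FPKM in the labelled Nfia knockouts and 6.57 FPKM in the Nfib knockouts, against 6.22 FPKM in Nfia-line and 23.0 FPKM in Nfib-line wild types (1.18 and -1.87). Mid1, which spans the pseudoautosomal boundary in C57BL/6 mice, had 38.0 and 15.4 FPKM in the labelled Nfia and the Nfib knockouts, against 9.15 and 38.0 FPKM in Nfia-line and Nfib-line wild types, beside the sex-linked values given above. Lists of other regions that a cortical dissection can include had medians over kept members above 0 between the knockouts and below 0 between the wild types. Amygdala and piriform genes had medians of 0.77 between the knockouts and -0.29 between the wild types (13 kept of 14). Their knockout median was 0.24 over the 11 members at 1 FPKM in both knockouts. Thalamic and diencephalic genes had medians of 0.73 and -0.71 (6 kept of 15), with a knockout median of 0.54 over the 4 members at 1 FPKM in both. The thalamic marker Gbx2 did not reach 1 FPKM in either knockout group and was not kept. Its levels were 0.522 and 0.0379 FPKM in the labelled Nfia and the Nfib knockouts. In Nfia-line and Nfib-line wild types they were 0.0956 and 0.196 FPKM. Tcf7l2, a thalamic marker that was kept, differed less, with 1.82 and 1.34 FPKM in the labelled Nfia and the Nfib knockouts (0.42). Hippocampal and cortical hem genes had medians of 0.19 and -0.62 (15 kept of 21), with a knockout median near 0 (0.06) over the 12 members at 1 FPKM in both. The share of such tissue in each library was not tested.

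Genes of cortical progenitors ran the other way and were lower in the labelled Nfia than in the Nfib knockouts by modest amounts. Intermediate progenitors are the dividing neuronal precursors of the subventricular zone. All 16 genes of their list, not all of which are limited to these cells, had a knockout ratio below 0 (48.3% of all rows). Their median was -0.54, beside 0.06 between the wild types. At least 1.5-fold lower were 6 (1.04% of all rows), and 0 were at least 2-fold lower (0.218%). For 12 of the 16 the Nfib knockouts were the highest of the 4 groups (21.2% of all rows), and for 8 the labelled Nfia knockouts were the lowest (24.1% of all rows). Eomes, the T-box factor that defines these cells, had 27.2 FPKM in the labelled Nfia knockouts and 43.7 FPKM in the Nfib knockouts, against 40.4 FPKM in Nfia-line and 37.0 FPKM in Nfib-line wild types (-0.68). Neurog2, the proneural factor upstream of Eomes, had 34.4 FPKM in the labelled Nfia knockouts and 57.6 FPKM in the Nfib knockouts, against 41.0 FPKM in Nfia-line and 34.1 FPKM in Nfib-line wild types (-0.74). Nhlh1, a helix-loop-helix gene of newborn neurons, had 4.61 FPKM in the labelled Nfia knockouts and 8.86 FPKM in the Nfib knockouts, against 4.29 FPKM in Nfia-line and 4.75 FPKM in Nfib-line wild types (-0.93).

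These genes reached their ratios by different routes. Over all rows, the authors' deposited table has 2.69% of rows higher and 1.1% lower in the Nfia knockouts at a q of 0.05, and 2.13% higher and 3.26% lower in the Nfib knockouts. The log2 fold of Eomes in the authors' deposited table was -0.58 (q = 0.00286) in the Nfia knockouts and 0.25 (q = 0.493) in the Nfib knockouts. That of Neurog2 was -0.26 (q = 0.563) in the Nfia and 0.77 (q = 0.00207) in the Nfib knockouts, and that of Nhlh1 was 0.09 (q = 0.999) and 0.91 (q = 0.00207), also in the authors' deposited table. Eomes thus passed the threshold as lower in the Nfia knockouts, and the other 2 genes as higher in the Nfib knockouts.

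**Figure D3:**
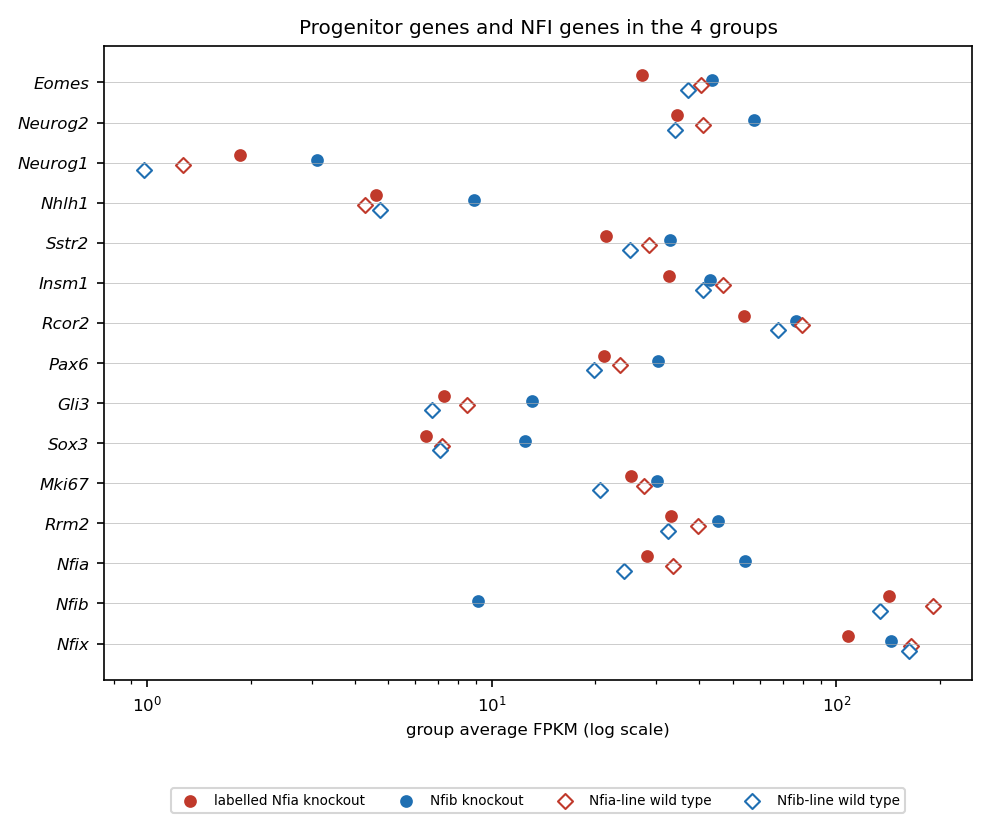
Group average FPKM (log scale, horizontal) of 12 progenitor and cell cycle genes and of Nfia, Nfib and Nfix in the labelled Nfia knockouts (red circles), Nfib knockouts (blue circles), Nfia-line wild types (open red diamonds) and Nfib-line wild types (open blue diamonds). The Nfib knockouts are to the right of the labelled Nfia knockouts for every gene drawn but Nfib. The genes are a selection. It leaves out the 3 of 23 radial glia and the 2 of 32 cell cycle members with knockout ratios above 0. For Nhlh1, Gli3 and Sox3 the other 3 groups lie close together.

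Radial glia genes gave a median of -0.37, with 20 of 23 kept members below 0 (48.3% of all rows), beside -0.20 between the wild types. Gli3, a transcription factor of Hedgehog signalling, had 7.29 FPKM in the labelled Nfia knockouts and 13.1 FPKM in the Nfib knockouts, against 8.47 FPKM in Nfia-line and 6.71 FPKM in Nfib-line wild types (-0.84). Pax6, which keeps the dorsal progenitor identity, had 21.1 and 30.4 FPKM in the labelled Nfia and the Nfib knockouts, against 23.6 and 19.9 FPKM in Nfia-line and Nfib-line wild types (-0.52). Sox3, a progenitor factor outside the list, had 6.46 and 12.5 FPKM in the labelled Nfia and the Nfib knockouts, against 7.15 and 7.09 FPKM in Nfia-line and Nfib-line wild types (-0.94). For all 3 genes it was the Nfib knockouts that stood above the other groups. Cell cycle genes had a median of -0.29 with 30 of 32 below 0, and the Nfib knockouts were the highest group for 27 of the 32 (21.2% of all rows). Aurkb, a mitotic kinase gene, had 8.42 and 12.9 FPKM in the labelled Nfia and the Nfib knockouts, against 10.8 and 9.61 FPKM in Nfia-line and Nfib-line wild types (-0.61). Cdkn1a, an inhibitor of the cycle, was one of the 2 exceptions, with 6.00 and 4.40 FPKM in the labelled Nfia and the Nfib knockouts (0.44). Notch pathway genes had a median of -0.24 with 18 of 21 below 0, and Wnt pathway genes a median of -0.21 with 14 of 19 below 0. Neocortical identity genes were all 6 below 0, with a median of -0.26. The part of tissue composition was not tested. Hmga2, a chromatin protein gene of early progenitors, had 2.99 and 5.31 FPKM in the labelled Nfia and the Nfib knockouts, against 2.03 and 0.781 FPKM in Nfia-line and Nfib-line wild types (-0.81), above both wild types in both knockouts.

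The strongest excess in the Nfib knockouts belonged to the choroid plexus, the epithelium that makes cerebrospinal fluid. Ttr, the transthyretin gene that defines it, had 1.41 FPKM in the labelled Nfia knockouts and 94.8 FPKM in the Nfib knockouts, against 0.425 FPKM in Nfia-line and 0.346 FPKM in Nfib-line wild types (-5.98). The potassium channel subunit gene Kcne2 had 0.124 and 1.28 FPKM in the labelled Nfia and the Nfib knockouts, against 0.195 and 0.188 FPKM in Nfia-line and Nfib-line wild types (-2.62). Folr1, a folate receptor gene, had 0.0345 FPKM in the labelled Nfia and 1.18 FPKM in the Nfib knockouts, against 0.0262 FPKM in the Nfia-line wild types, and is listed at 0 in the Nfib-line wild types. Of 15 genes of the list 5 were kept, and 4 of these were at least 2-fold lower in the labelled Nfia knockouts (0.218% of all rows). Kcne2, Folr1 and Sostdc1, 3 of the 4, passed through the Nfib knockouts alone, where they are higher, so their direction was set by the filter. Over all 15 genes the median was -0.99. The summed level was 6.05 FPKM in the labelled Nfia and 105 FPKM in the Nfib knockouts, against 4.08 FPKM in Nfia-line and 6.58 FPKM in Nfib-line wild types, and Ttr made up most of it. Enpp2, which other brain cells also make, was alike in all groups, with 3.05 and 3.04 FPKM in the labelled Nfia and the Nfib knockouts. Whether 1 library of the Nfib knockouts carried this signal cannot be seen in group averages, and the share of choroid plexus in the dissections was not tested.

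Rows of ribosomal RNA and of Lars2 also separated the knockouts. Rn45s, the ribosomal RNA precursor, had 129.9 FPKM in the labelled Nfia knockouts and 561 FPKM in the Nfib knockouts, against 346 FPKM in Nfia-line and 517 FPKM in Nfib-line wild types (-2.11). Lars2, a mitochondrial leucyl-tRNA synthetase gene, had 60.4 FPKM in the labelled Nfia knockouts and 236 FPKM in the Nfib knockouts, against 165 FPKM in Nfia-line and 175 FPKM in Nfib-line wild types (-1.97). The labelled Nfia knockouts were the lowest group for both rows. Rmrp, the RNA of an RNA-processing enzyme, had 2.19 and 10.7 FPKM in the labelled Nfia and the Nfib knockouts, against 5.6 and 11.8 FPKM in Nfia-line and Nfib-line wild types (-2.24 and -1.06), so it was lower in the Nfia line in both contrasts. Ribosomal RNA left in a library depends on its preparation, whose part in these rows was not tested. Inadl, a cell polarity gene, was a protein-coding row with alike wild types, at 1.94 and 4.53 FPKM in the labelled Nfia and the Nfib knockouts and at 2.39 and 2.27 FPKM in Nfia-line and Nfib-line wild types (-1.18).

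For 4 genes, chosen after their values were seen, the averages of the knockouts were closer to each other than to either wild type. Tnc, the matrix protein tenascin-C of radial glia, had 11.5 FPKM in the labelled Nfia and 11.3 FPKM in the Nfib knockouts, against 25.2 FPKM in Nfia-line and 37.8 FPKM in Nfib-line wild types (0.02). Mfge8, a secreted glycoprotein gene of radial glia and astrocytes, had 13.9 and 14.9 FPKM in the labelled Nfia and the Nfib knockouts, against 25.04 and 39.3 FPKM in Nfia-line and Nfib-line wild types (-0.10). Pou3f2, a POU-domain gene active in upper-layer neurons, had 32.8 and 33.4 FPKM in the labelled Nfia and the Nfib knockouts, against 58.8 and 38.9 FPKM in Nfia-line and Nfib-line wild types (-0.03). Crym, a thyroid hormone binding protein gene of cortical neurons, had 2.28 and 1.59 FPKM in the labelled Nfia and the Nfib knockouts, against 3.56 and 22.5 FPKM in Nfia-line and Nfib-line wild types (0.49). All 4 averages were lower in both knockouts than in either wild type, though in the authors' deposited table Pou3f2 did not pass in the Nfib knockouts (q = 0.674) nor Crym in the Nfia knockouts (q = 0.232). Without a spread between libraries, a ratio near 0 does not show that the knockouts are equal.

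By list, the layer genes of the cortex hardly separated the knockouts. Upper-layer neuron genes had a median of 0.05 over 18 members, and Lmo4 was the one member at least 1.5-fold higher (0.64). Deep-layer neuron genes had a median of -0.01 over 19 members. Pcp4, a calmodulin regulator gene of deep layers that striatal neurons also make, was the one at least 2-fold higher, with 100.4 FPKM in the labelled Nfia knockouts and 46.6 FPKM in the Nfib knockouts, against 50.8 FPKM in Nfia-line and 63.7 FPKM in Nfib-line wild types (1.11). Astrocyte genes had a median of -0.06 over 21 kept members, beside -0.52 between the wild types. Oligodendrocyte lineage genes were all 12 above 0 (51.7% of all rows) with a median of 0.37, beside -0.38 between the wild types. Olig1, a factor of that lineage also made by ventral progenitors, had 7.63 and 4.88 FPKM in the labelled Nfia and the Nfib knockouts, against 7.56 and 11.3 FPKM in Nfia-line and Nfib-line wild types (0.64). The labelled Nfia knockouts were at the level of their wild types here, and the Nfib knockouts were the lowest group for 10 of the 12 members (25.2% of all rows). Endothelial and pericyte genes (-0.10, 15 members), microglial genes (0.08, 10 members) and genes of meninges and fibroblasts (-0.15, 6 members) had medians near 0. Lists of subplate neurons (0.07), cortical area patterning (0.10), brain extracellular matrix (-0.04), immediate early genes (-0.10), BMP signalling and ID genes (-0.11) and early-progenitor genes (-0.11) also had knockout medians near 0, while Cajal-Retzius genes had 0.44 over 14 members. Several genes stand in more than one list, such as Foxp2, Prox1 and Nr2f2.

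**Figure D4:**
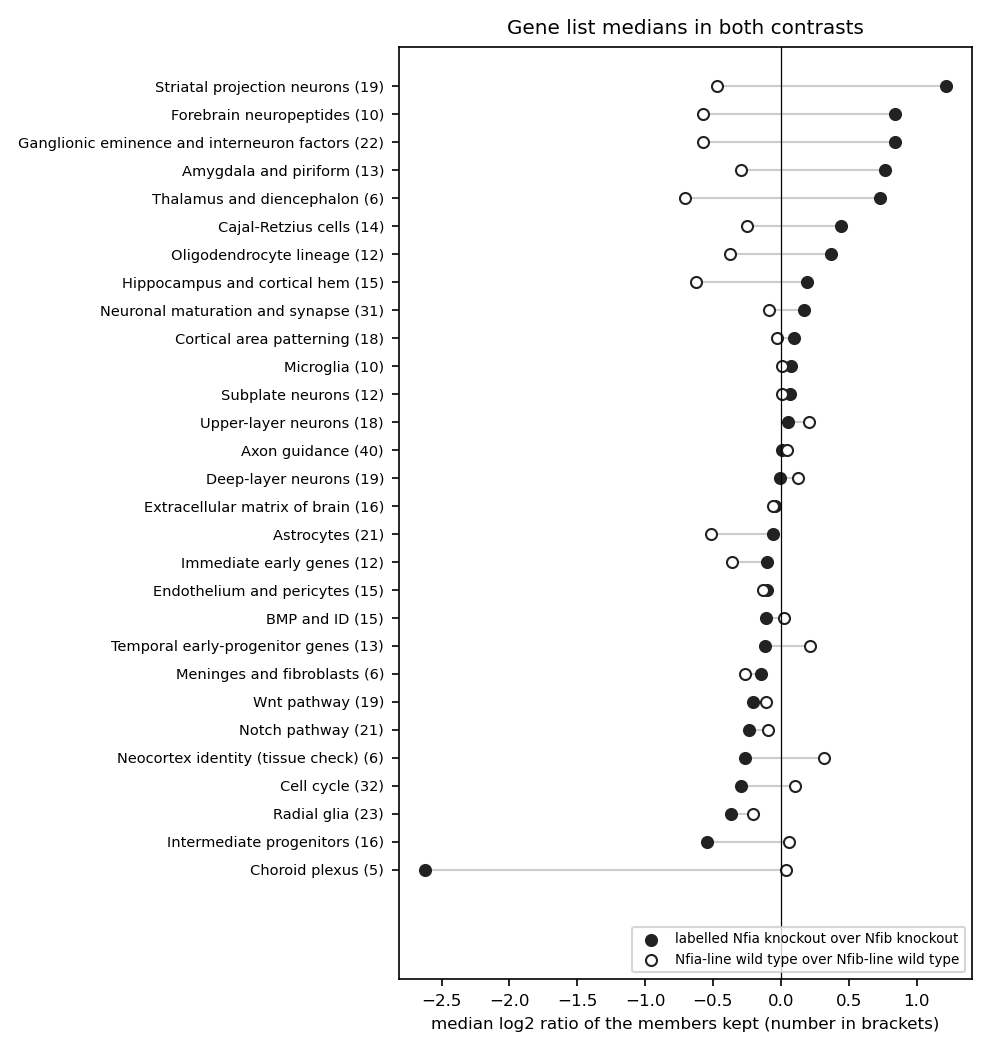
Median log2 ratio of gene lists with 5 or more kept members, whose number is in brackets. Filled points are between the labelled Nfia and the Nfib knockouts, open points between the Nfia-line and the Nfib-line wild types. The lists of sex-linked genes and of globins and erythroid genes are not drawn, though each has 5 kept members. Striatal genes are at the top with 1.22 and -0.47, intermediate progenitor genes near the bottom with -0.54 and 0.06, and choroid plexus genes last with -2.62 over 5 members.

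A test was possible for the difference between the 2 knockout effects, each against its own wild types, with errors implied by the deposited p-values. It is not a test of the knockout ratio, since both wild-type groups enter it, and its errors rest on groups of 4 knockout and 2 wild-type libraries. The median error of the difference was 0.36 on the log2 scale at 1 to 5 FPKM, 0.25 at 5 to 20 FPKM and 0.20 at 20 to 100 FPKM. Of 13553 rows tested, 372 (2.74%) had a higher and 138 (1.02%) a lower effect in the labelled Nfia knockouts at a Benjamini-Hochberg adjusted p of 0.05. These counts take in differences between the wild types, in which line and sex cannot be told apart. Sex-linked genes numbered 3 higher and 1 lower of 5 tested. Ddx3y, for example, had a difference of 8.72 (adjusted p of 0.0025 in this test) at a log2 knockout ratio of 0.30. Striatal genes numbered 11 higher and 1 lower of 19 tested, and ganglionic eminence and interneuron genes 13 higher and 0 lower of 23. Intermediate progenitor genes numbered 0 higher and 5 lower of 16 tested, namely Eomes, Neurog2, Sstr2, Rcor2 and Insm1, and cell cycle genes 0 higher and 4 lower of 32. Ppp1r1b was the striatal gene with a lower effect. The difference was 2.56 ± 0.45 for Ntn1 (implied error, adjusted p of 1.06e-05), 3.72 ± 0.66 for Isl1 (adjusted p of 1.14e-05) and 2.07 ± 0.37 for Ebf1 (adjusted p of 1.14e-05) on the log2 scale in this approximate test. For Nfia it was -1.45 ± 0.32 (adjusted p of 0.000701), for Neurog2 -1.04 (adjusted p of 0.00123) and for Gli3 -1.21 ± 0.29 (adjusted p of 0.0025) in the same test. Ttr came to -6.39 ± 2.05 (adjusted p of 0.0496), close to the threshold. An error derived from the smallest deposited p, 5e-05, is an upper limit. This holds for Ntn1 and Isl1 in both knockouts. It also holds for Ebf1 and Lhx8 in the Nfia knockouts, and for Ttr, Nfia, Neurog2 and Gli3 in the Nfib knockouts. Lhx8, with the largest knockout ratio among the genes named here, had a difference of 8.02 ± 2.68 that did not pass (adjusted p of 0.0659).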

How the data were processed

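Total RNA libraries of 12 samples in 4 groups were described by the labels. The submitters' processing notes name build mm9 and the tools TopHat2 2.0.10, Cuffdiff 2.1.1, Cufflinks and CASAVA 1.8.2. Whether counting used strand is not given in the sources, so reads of a gene and an overlapping antisense gene could be mixed. In 1 table of 23352 rows the authors deposited FPKM averaged per group. The same deposited table gives a log2 fold, a p-value and a q-value for each knockout against its own wild types. Spreadsheet error cells among the folds were read as missing. Depth and values per library are unknown.

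Log2 ratios were computed with 0.1 FPKM added, over rows at 1 FPKM or more in either knockout group. Groups were taken from titles and strain, since the growth protocol names the Nfia allele for both lines. The members, the 33 gene lists and the naming rule were chosen with earlier results of these data known. The rule took NFI genes, the 15 extreme rows per direction over all rows and over rows with alike wild types, up to 8 rows apart in both contrasts, up to 5 members per list and, per direction, the 10 rows with the smallest adjusted p (ties by the size of the difference). Not all of them are named and a few are not reported here, while further list members, promoter genes and 2-fold rows were named after their values were seen.

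For the difference of effects, the error of a fold was derived from its deposited p-value (the fold over the corresponding normal deviate) and was set no lower than a running median of 501 rows close in FPKM. The smallest deposited p, 5e-05, gives an upper limit of the error. What spread the deposited p-values measure, between embryos or technical, could not be checked. The procedure was run on simulated folds drawn with the normal errors that it assumes itself. Such data cannot show whether the deposited p-values measure the spread between libraries. Tools were Python 3.11.15 with matplotlib 3.10.9, scipy 1.17.1, pandas 2.3.3 and numpy 2.4.6. Promoters came from RefSeq.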

Additional observations from a re-analysis of the deposited data

Results flagged for a closer look

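For 20 genes, the 10 per direction with the smallest adjusted p and, among ties, the largest difference, the effect of the labelled Nfia knockout and that of the Nfib knockout, each against its own wild types, differed in the approximate test. Higher in the labelled Nfia knockouts were Nkx2-1 (4.45), Cyp26b1 (3.84), Lhx9 (3.63), Rasal1 (3.30), AW551984 (3.16), Tmem132e (2.86), Car10 (2.72), Ntn1 (2.56), Adra2a (2.46) and Hap1 (2.20), given as log2 effect of the Nfia less that of the Nfib knockouts. Each has an adjusted p of 1.06e-05 in this test, which 16 higher genes share, and these 10 have the largest differences among them. For all 10, both deposited p-values are at the smallest value, 5e-05. That value limits how small the adjusted p can become, so the shared adjusted p does not rank the evidence for these genes. Lower were Lars2 (-1.93), Zfp703 (-1.34), Abcc8 (-1.20), Plxna4 (-1.17), Tenm4 (-1.13), Zkscan3 (-1.09), Sorl1 (-1.08), Nos1 (-1.06), Scrt2 (-0.99) and Nav2 (-0.96), with adjusted p-values from 4.51e-05 to 0.000587 in the same test.

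Much of several of these differences lies in the wild types. Hap1, a vesicle transport gene, had 16.8 and 9.12 FPKM in the labelled Nfia and the Nfib knockouts, against 7.83 and 20.2 FPKM in Nfia-line and Nfib-line wild types, ratios of 0.87 and -1.35. Lhx9, a LIM homeobox gene, had 1.59 and 0.842 FPKM in the labelled Nfia and the Nfib knockouts, against 0.523 and 3.50 FPKM in Nfia-line and Nfib-line wild types. Plxna4, a semaphorin receptor gene, had 48.0 and 65.6 FPKM in the labelled Nfia and the Nfib knockouts, against 65.5 and 40.8 FPKM in Nfia-line and Nfib-line wild types, ratios of -0.45 and 0.68. Of the 20 genes, Ntn1 and Lars2 had wild types closest to each other among those described in the report. Lars2 was described beside the ribosomal RNA row Rn45s, and the part of library preparation in both was not tested.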

How the results depend on the processing

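The counts depend on how low genes are treated. The 118 higher and 27 lower rows became 53 and 17 with 1 FPKM added, 42 and 8 at 5 FPKM in either knockout group, 59 and 9 at 1 FPKM in both, 188 and 57 without a filter, 391 and 129 at 1.5-fold and 41 and 16 at 3-fold. Without sex-linked genes, globins, rows of several genes and listed 0, 13 lower rows were counted. Without small RNA rows, rows of several genes and listed 0, but with globins and sex-linked genes, 12 were counted, an alternative chosen after seeing the data. Of the 63 named genes at least 2-fold apart, 35 were so with 1 FPKM added. None of the 193 genes that the naming rule gives changed sign with centring on the median or upper-quartile scaling. Centring moves all ratios by the same small amount, so it could reverse only genes near 0. Adding 1 or 0.01 FPKM to both groups cannot change a sign.

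With 1 FPKM added, the higher rows held 23 with alike wild types, 1 the same way and 10 the opposite way, and the lower rows 4 the same way and 0 the opposite way. With 0.01 FPKM added, 5 lower rows were the opposite way. At 5 FPKM in either group the higher rows held 17 alike and 7 opposite, and the lower rows 5 alike, 2 the same way and 0 opposite. At 1 FPKM in both, the higher rows held 27 alike, 1 the same way and 9 opposite, and the lower rows 3, 4 and 1 in this order. With wild types within 0.25 log2, 26 higher rows counted as alike, and 86 within 1 log2.

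With 1 FPKM added, list medians were 0.91 (striatal), 0.55 (thalamic), 0.49 (amygdala and piriform) and -1.02 (choroid plexus), and -3.27 for choroid plexus with 0.01 FPKM. Over all members in the table they were 1.02 (striatal), 0.50 (amygdala and piriform), 0.60 (neuropeptides), -0.99 (choroid plexus) and -0.22 (erythroid, -0.42 over kept members). Over members at 1 FPKM in both knockouts, also chosen after seeing the data, they were 0.77 (striatal), 0.54 (thalamic), 0.24 (amygdala and piriform) and -2.99 (choroid plexus, 2 members). The other 184 list medians recomputed moved by less than 0.18, the median implied error of a fold.

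The difference test called 233 higher and 68 lower rows at an adjusted p of 0.01, and 125 and 40 without rows at the smallest deposited p. No paired analysis was possible because the table holds group averages, so neither the replicate numbers in the titles nor leaving out a library could be used.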
